A study of Mus musculus with 12 samples.

Results

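The genes described here encode the chemokines of the mouse and their receptors. Membership followed gene symbols: protein-coding genes of the GRCm38 annotation named Ccl, Ccr, Cxcl or Cxcr with a number, together with Xcl1, Xcr1, Cx3cl1, Cx3cr1, Ccrl2 and Ackr1 to Ackr4. This rule found 63 of 21896 protein-coding genes. Acetylated chromatin was assigned to a gene when it lay over the gene span or within 5 kb of either end. That took in 84 of the 40909 regions that the authors tested.

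The mark measured was H3K9/14ac, histone H3 acetylated on lysine 9 or 14, which sits at promoters and enhancers in use. RELACS, a form of ChIP-seq, barcodes the chromatin of each sample while it is still in the nucleus, and the barcoded samples then share a single immunoprecipitation. T helper 17 (Th17) cells of C57BL/6 mice were compared between wild type (WT) and Slc2a3-fl/fl Cd4-cre (KO), in which the gene of the glucose transporter GLUT3 is removed by Cre under the Cd4 promoter, which is active in developing T cells, before the culture began. There were 3 ChIP libraries per genotype, and 6 input libraries were not analysed here. In both genotypes naive T cells were cultured for 3 days under Th17 polarizing conditions and then given PMA and ionomycin for 3 h while brefeldin A and monensin blocked secretion, so all values are from stimulated cells. The sources used here do not give the age of the mice, nor say whether WT cells carried Cd4-cre or whether libraries came from separate mice. The p-values and FDRs therefore measure a spread between libraries that may be technical.

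Chemokines are small secreted proteins that direct the movement of leukocytes. Each binds one or more seven-transmembrane receptors that couple to inhibitory G proteins, and the cell then moves up the gradient. Inflammatory chemokines are induced at sites of infection, homeostatic ones position cells in lymphoid organs and barrier tissues, and atypical receptors bind chemokines without G protein signalling. CCR6 and its ligand CCL20 are the pair classically linked to Th17 cells, which both respond to CCL20 and make it.

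Promoters are shown for 6 genes whose start site lay inside a tested region: the pair whose region rose in KO (Ccl20 and Ccrl2), the Th17 receptor gene Ccr6, and the receptor genes Ccr4, Ccr8 and Cxcr3, whose region fell. Each runs from 250 bases before to 50 bases after a start site (RefSeq, GRCm38.p6), written 5′ to 3′ along the gene's own strand. Capitals mark matches, on either strand, to the core promoter motif TATAAA, to TGANTCA (AP-1), TTCNNNGAA (STAT) or AGGTCA (ROR core), or to the NF-kB motif.
Ccl20 (chr1:83116516-83116815, plus strand): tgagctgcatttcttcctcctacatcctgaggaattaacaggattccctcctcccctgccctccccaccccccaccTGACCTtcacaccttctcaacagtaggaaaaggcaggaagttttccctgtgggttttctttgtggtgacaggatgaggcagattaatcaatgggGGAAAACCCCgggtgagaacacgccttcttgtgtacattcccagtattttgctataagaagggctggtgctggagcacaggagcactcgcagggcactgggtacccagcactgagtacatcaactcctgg
Ccrl2 (chr9:111057469-111057768, minus strand): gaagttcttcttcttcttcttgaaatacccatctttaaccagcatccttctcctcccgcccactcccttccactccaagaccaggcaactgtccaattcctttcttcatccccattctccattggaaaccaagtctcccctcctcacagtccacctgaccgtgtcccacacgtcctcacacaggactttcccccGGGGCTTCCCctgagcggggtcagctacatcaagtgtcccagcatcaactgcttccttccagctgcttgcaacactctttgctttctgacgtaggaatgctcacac
Ccr6 (chr17:8235793-8236092, plus strand): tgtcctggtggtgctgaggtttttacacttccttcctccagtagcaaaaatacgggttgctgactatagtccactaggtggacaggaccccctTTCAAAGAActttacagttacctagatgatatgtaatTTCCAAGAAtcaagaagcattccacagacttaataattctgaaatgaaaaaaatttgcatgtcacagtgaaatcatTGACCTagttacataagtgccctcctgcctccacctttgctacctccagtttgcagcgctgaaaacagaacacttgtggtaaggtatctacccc
Ccr4 (chr9:114496495-114496794, minus strand): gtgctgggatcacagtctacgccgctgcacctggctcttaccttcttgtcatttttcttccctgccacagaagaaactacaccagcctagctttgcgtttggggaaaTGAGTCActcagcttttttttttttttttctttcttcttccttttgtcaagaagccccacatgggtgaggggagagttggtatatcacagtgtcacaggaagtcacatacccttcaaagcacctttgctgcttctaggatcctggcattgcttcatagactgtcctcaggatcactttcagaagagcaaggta
Ccr8 (chr9:120091883-120092182, plus strand): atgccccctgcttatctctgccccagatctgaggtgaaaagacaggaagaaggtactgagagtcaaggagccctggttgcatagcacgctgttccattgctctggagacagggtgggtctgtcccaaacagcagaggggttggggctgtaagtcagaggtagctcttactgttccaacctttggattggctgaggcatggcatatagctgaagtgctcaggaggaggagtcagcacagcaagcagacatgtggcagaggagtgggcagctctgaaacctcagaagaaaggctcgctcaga
Cxcr3 (chrX:101734098-101734397, minus strand): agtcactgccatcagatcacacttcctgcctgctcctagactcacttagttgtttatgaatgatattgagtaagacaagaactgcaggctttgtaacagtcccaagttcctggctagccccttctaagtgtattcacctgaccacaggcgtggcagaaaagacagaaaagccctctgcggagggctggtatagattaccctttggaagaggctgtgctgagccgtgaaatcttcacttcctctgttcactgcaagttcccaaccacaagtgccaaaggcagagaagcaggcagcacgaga

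Positions in these promoters are counted from the start site at 0. The Ccl20 promoter held a ROR core at -174 and an NF-kB match at -80. A single NF-kB match was found at -56 in the Ccrl2 promoter. In the Ccr6 promoter there were STAT matches at -157 and -120 and a ROR core at -44. The Ccr4 promoter had an AP-1 match at -143, while none of the 5 motifs was found in the windows of Ccr8 and Cxcr3. No matches shown overlap each other. Among 57 tabulated promoters of 48 members, 19.3% held the NF-kB motif, against 4.5% of all 32851 promoters in the table. The other shares in members and in all promoters were 26.3% and 13.6% for TATAAA, 17.5% and 7.81% for TGANTCA, 26.3% and 16.3% for AGGTCA, and 7.02% and 8.30% for TTCNNNGAA. A match describes letters in the window and is not evidence of binding.

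Several measures of the libraries moved with genotype. Fragment coverage, solved from peak statistics, averaged 2.97 to 3.99 in the WT libraries and 1.85 to 2.29 in the KO libraries. Peaks covered 65219.9 to 70521.6 kb of the genome in WT and 53681 to 58393.3 kb in KO. KO replicate 3 had 11 peaks on chromosome Y, where the other libraries had 1 or 2. At the targeted gene Slc2a3, the authors' deposited table listed 8 of 9 regions as lower and 0 as higher. All 6 T cell markers (Cd3e, Cd3d, Cd3g, Cd4, Cd5 and Thy1) had peaks in every library, but the length under peaks was lower in KO, at 60.9 to 62.4 kb in WT and 54.0 to 57.1 kb in KO, and 5 of 6 had a lower region in the authors' deposited table. The list of 6 Th17 markers, among them Rora, Il17a, Il17f, Il23r and Il1r1, had 170 to 198 kb in WT and 58.9 to 76.0 kb in KO. Of these 6 markers 5 had a lower region in the authors' deposited table, 1 of these 5 also had a higher one, and 1 marker had neither. Among all protein-coding genes with a region, 71.3% had a lower region and 15.8% a higher one. Of markers of other cells, no library had a peak at Ms4a1 and Pax5 (B cells), Cd8a and Ncr1 (CD8 T and NK cells), Lyz2 and Adgre1 (myeloid cells) or Hbb-bs and Hba-a1 (erythroid cells). The whole lists had 7.40 to 8.23 kb in WT and 5.84 to 7.31 kb in KO for 5 B cell markers, and 13.7 to 15.0 kb and 8.01 to 9.92 kb for 6 myeloid markers. For 5 erythroid markers the lengths were 3.98 to 5.04 kb in WT and 1.92 to 3.44 kb in KO. Of these 4 lists, only that of 6 CD8 T and NK cell markers overlapped between genotypes, with 10.1 to 12.1 kb in WT and 8.90 to 11.4 kb in KO. The part of these differences in the results that follow was not tested. In bulk chromatin, fewer cells with a mark and less of the mark per cell cannot be told apart.

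Acetylation was found at 36 of the 63 genes. Of these, 29 had at least 1 region tested by the authors (46.0%, against 60.1% of all protein-coding genes) and 7 had only peaks that met no tested region. No library had a peak at the other 27. A region lower in KO at an FDR under 0.05 was listed for 17 of the 29 genes (58.6%) in the authors' deposited table, against a background of 71.3% of genes with a region. A region higher in KO was listed for 6 (20.7%) in the authors' deposited table, against a background of 15.8%. Cxcl16 had both kinds.

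Counted by region, the authors' deposited table lists 41 of 84 as lower in KO (48.8%) and 7 as higher (8.33%), where the background over all regions was 46.3% and 12.7%. The median log2 fold change, KO minus WT, of each region's strongest 150 bp window was -0.66 for the family and -0.62 for all regions in the authors' deposited table. The share of lower regions and the median thus lay close to those of all regions. The authors' scale lies 0.29 (log2) below one set by mean coverage.

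**Figure D1:**
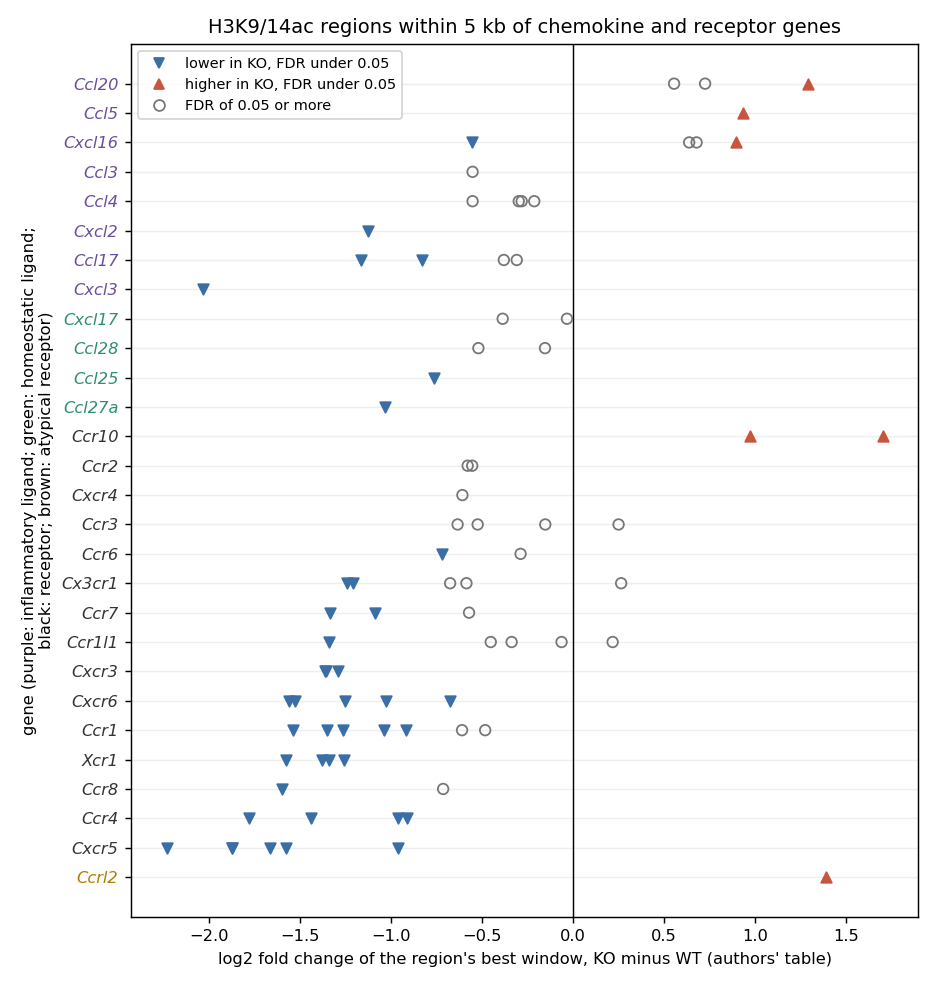
Log2 fold change (x axis, KO minus WT, authors' deposited table) of tested regions within 5 kb of the genes shown (y axis, genes grouped by role). Triangles pointing down are regions lower in KO and triangles pointing up regions higher in KO at an FDR under 0.05, and open circles are other regions. Receptor genes hold 59 of the family's 84 regions and 34 of its 41 lower regions, and the 6 regions of Cxcr5 are all lower.

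The 6 libraries were also compared through the length that peaks cover over the genes and their flanks. WT replicates 1 to 3 had 169.4, 164.1 and 172.2 kb, and KO replicates 1 to 3 had 115.7, 138.1 and 131.1 kb. Every KO library was below every WT library, and the means were 168.6 ± 4.13 kb (SD, n = 3) and 128.3 ± 11.5 kb (SD, n = 3; two-sided exact permutation p = 0.1, the smallest the design allows). The ratio of KO to WT was 0.761, against 0.827 for the covered length of the whole genome. As a share of the genome's covered length, the family took 0.240, 0.252 and 0.259% in WT and 0.215, 0.236 and 0.238% in KO, also without overlap (exact permutation p = 0.1). The number of genes with a peak overlapped between genotypes, at 30, 30 and 32 in WT and 30, 30 and 28 in KO (exact permutation p = 0.6).

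Gene by gene, the covered length of every KO library was below that of every WT library at 14 of the 36 genes with peaks, where the background over all genes with peaks was 41.2%. At 1 gene, Ccl5, every KO library was above, with a background of 6.18%. The groups overlapped at the other 21. A peak present in all 3 WT libraries and in 0 KO libraries was found in 4 of the 84 regions (4.76%, against 6.67% of all regions located), of which 3 belong to Cxcr5 and 1 to Ccr1. No region had the opposite pattern, which 2.6% of all regions showed.

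**Figure D2:**
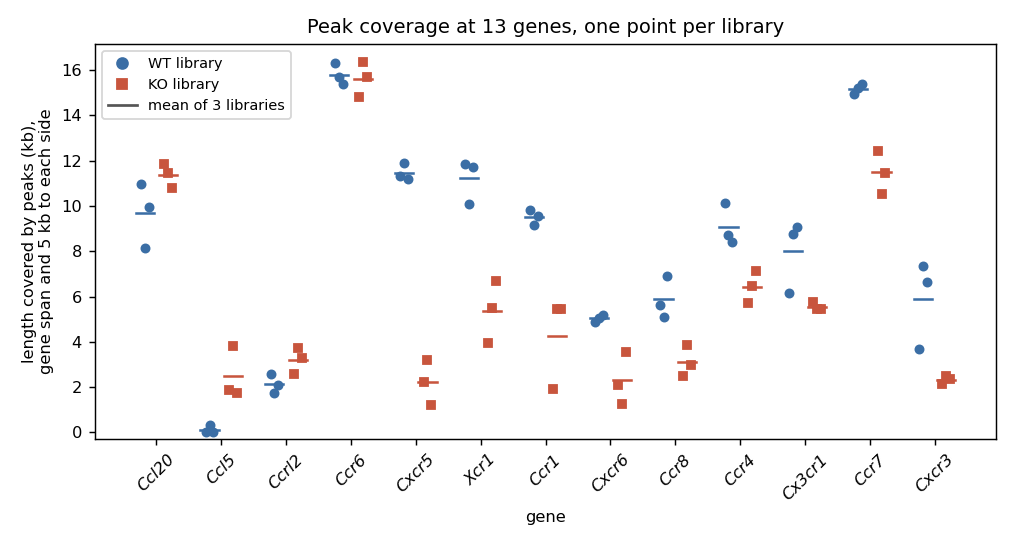
Length under peaks (y axis, kb, gene span plus 5 kb to each side) at 13 genes (x axis), with 1 point per library and a line at the mean of 3 libraries. At Ccl5 all KO libraries lie above all WT libraries, at Ccl20, Ccrl2 and Ccr6 the groups overlap, and at the 9 genes from Cxcr5 to Cxcr3 all KO libraries lie below.

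Among the ligands, Ccl20 gained acetylation. The gene (chromosome 1, 83116766 to 83119167) encodes the ligand of CCR6, and its main region (83115901 to 83123400) covers the start site, the whole span and the chromatin beyond its far end. The authors' deposited table gave it a log2 fold change of 1.29 (FDR 5.04e-07), with 37 of its 50 windows up and 0 down. Both flanking regions had positive values, 0.72 and 0.55, that did not pass in the authors' deposited table (FDR 0.257 and 0.234).

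Height of the highest peak over the mean coverage of its library, a measure that can be read per library, gave the same direction at Ccl20. WT replicates 1 to 3 had 58.7, 29.6 and 36.7, and KO replicates 1 to 3 had 91.9, 98.3 and 80.7. The lowest KO library stood above the highest WT library, and WT replicate 1 stood above the other WT libraries. The means were 41.6 ± 15.2 and 90.3 ± 8.87 (SD, n = 3 each; exact permutation p = 0.1, Benjamini-Hochberg adjusted 0.193 over 29 regions). The ratio was 2.17, or 1.12 in log2 and 0.83 on the authors' scale. Covered length changed less, from 10966, 8162 and 9948 bp in WT to 11851, 11450 and 10816 bp in KO, with overlap between KO replicate 3 and WT replicate 1.

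Ccr6 (chromosome 17, 8236041 to 8258519), the receptor gene of this pair, had one of the widest acetylated domains of the family. Its main region (8232451 to 8245350) spans 12900 bp over the start site, and the authors' deposited table gave it a log2 fold change of -0.72 (FDR 0.0204). Of its 86 windows, 24 were down and 0 up in the authors' deposited table. The height of its highest peak went the other way: 72.5, 74.4 and 75.8 in WT and 95.7, 87.8 and 83.3 in KO. Every KO library was above every WT library (74.2 ± 1.66 and 88.9 ± 6.25, SD, n = 3 each; exact permutation p = 0.1), yet the log2 ratio of 0.26 becomes -0.03 on the authors' scale. Covered length was 16331, 15689 and 15410 bp in WT and 14816, 16342 and 15690 bp in KO, with overlap. The second region of Ccr6 had -0.29 (FDR 0.695) in the authors' deposited table.

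**Figure D3:**
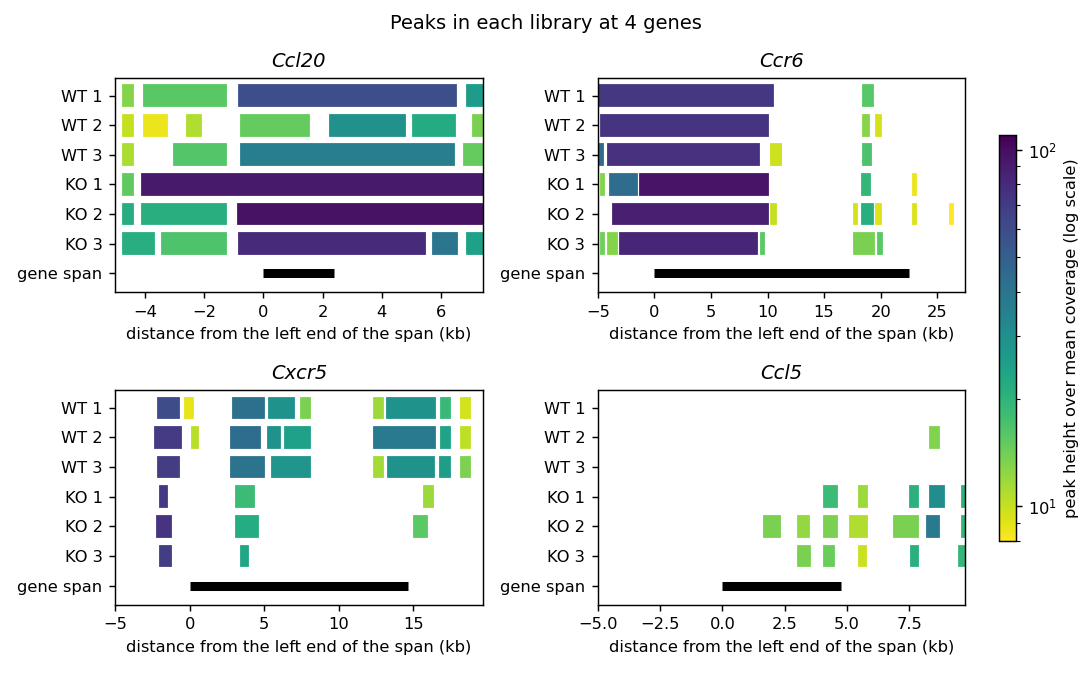
Peaks of each library (rows) at Ccl20, Ccr6, Cxcr5 and Ccl5, drawn by distance from the left end of the gene span (x axis, kb), which the black bar marks. Colour gives the height of the peak over mean coverage on a log scale. Peaks at Ccl20 are taller in the KO libraries, the domain of Ccr6 is wide in all 6 libraries, the Cxcr5 peaks over and beyond the span are short or missing in KO, and Ccl5 has peaks in all 3 KO libraries and 1 peak in WT replicate 2.

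The 26 inflammatory ligands had 18 regions at 8 genes, with 5 regions lower (27.8%) and 3 higher (16.7%) and a median log2 fold change of -0.29 in the authors' deposited table. Over all regions that table had 46.3% lower and 12.7% higher. Besides Ccl20, the genes with a higher region were Ccl5 and Cxcl16. Ccl5 (chromosome 11, 83525778 to 83530518) encodes a ligand of CCR1 and CCR3. Length under peaks there was 0, 328 and 0 bp in WT and 1865, 3831 and 1759 bp in KO. WT replicate 2 had 1 peak and the KO libraries had 5, 7 and 5. A region in the flank (83534101 to 83534550), 3583 bp from the span, had 0.93 (log2, FDR 0.000395) in the authors' deposited table. Within it peaks covered 0, 328 and 0 bp in WT and 445, 376 and 0 bp in KO, with overlap.

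Cxcl16 (chromosome 11, 70454389 to 70459984) encodes the membrane-bound ligand of CXCR6. A region at the right end of its span (70458901 to 70460100) had 0.89 (FDR 0.0172) in the authors' deposited table, and another in the left flank (70451251 to 70453650) had -0.56 (FDR 0.0358). The second of these covers the start site of Med11, and the first overlaps Zmynd15. At the right region 2 of 8 windows were up and 0 down in the authors' deposited table. Heights there were 17.0, 16.9 and 24.6 in WT and 23.2, 21.0 and 28.6 in KO, with overlap. Their log2 ratio of 0.31 becomes 0.03 on the authors' scale. Peaks within it covered 1141, 899 and 767 bp in WT and 1200 bp in each KO library, without overlap. Heights at the left region were 104, 126 and 116 in WT and 129, 140 and 132 in KO, above WT in every KO library, but the log2 ratio of 0.21 becomes -0.08 on the authors' scale.

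Lower regions were found at the neutrophil attractants Cxcl3 and Cxcl2 and at Ccl17, whose product binds CCR4. The Cxcl3 region (chromosome 5, 90785701 to 90786000) had the second lowest value of the family, -2.03 (FDR 2.42e-08), in the authors' deposited table. It is 300 bp wide, and a paired-end peak met the gene and its flanks only in WT replicate 3 (644 bp, against 0 in each of the other 5 libraries). For Cxcl2 the region before the start (90903301 to 90903750) had -1.13 (FDR 0.00527) in the authors' deposited table. Within it peaks covered 450, 0 and 355 bp in WT and 0, 440 and 0 bp in KO, with overlap. Over the gene and its flanks they covered 950, 0 and 655 bp in WT and 0, 444 and 0 bp in KO, also with overlap. Ccl17 (chromosome 8, 94809380 to 94812038) had 2 of 4 regions lower, -1.16 (FDR 0.000237) in the left flank and -0.83 (FDR 0.0315) over its start site, in the authors' deposited table. Its covered length was 4618, 5313 and 5220 bp in WT and 4329, 4127 and 3754 bp in KO, without overlap.

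Ccl3 and Ccl4, which encode inflammatory chemokines, share 1 region at -0.55 (FDR 0.0808) in the authors' deposited table, and the 3 further Ccl4 regions lay between -0.30 and -0.21. Neither gene passed. Cxcl5, Cxcl10, Ccl24 and Ccl9 had peaks but no tested region. No library had a peak at Xcl1, Cxcl15, Cxcl1, Cxcl9, Ccl26, Ccl22, Cx3cl1, Ccl2, Ccl7, Ccl11, Ccl12, Ccl8, Ccl1 and Ccl6. The 6 neighbours from Ccl2 to Ccl1 on chromosome 11 (82035577 to 82179812) were thus without a peak throughout, while 3 of 5 genes in the Ccl5 to Ccl4 group on the same chromosome had a region.

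Of the 12 homeostatic ligands, 4 had regions, and the authors' deposited table lists a lower region for 2 of these and a higher one for 0, against 71.3% and 15.8% of all genes with a region. Ccl27a (chromosome 4, 41769467 to 41774225) encodes a skin chemokine that binds CCR10. Its region over the start site (41773651 to 41774850) had -1.03 (FDR 4.14e-07), with 6 of 8 windows down, in the authors' deposited table. Peak height was 86.0, 83.8 and 93.3 in WT and 49.7, 55.5 and 61.5 in KO. No KO library reached the lowest WT library (87.7 ± 4.94 and 55.5 ± 5.86, SD, n = 3 each; exact permutation p = 0.1). Within this region peaks covered 1055, 1057 and 1057 bp in WT and 907, 927 and 925 bp in KO, without overlap. Over the gene and its flanks they covered 1055, 1357 and 1494 bp in WT and 1298, 1599 and 1688 bp in KO, with overlap.

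Ccl25, whose product attracts CCR9-bearing cells to the gut, had -0.76 (FDR 0.00286) in the authors' deposited table at a region (chromosome 8, 4323301 to 4326150) that also covers the start site of Elavl1. Ccl28 and Cxcl17 had 2 regions each, with lowest FDRs of 0.0901 and 0.402 in the authors' deposited table. Cxcl13 had a peak in KO replicate 2 alone. No peak was found at Ccl19, Ccl21a, Ccl21b, Ccl21c, Ccl27b, Cxcl12 and Cxcl14, nor at Ccl21d, which the role lists do not hold.

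Receptor genes held most of the covered length. Of 19 receptor genes 18 had a peak in some library and 16 had a region, where Ccr9, the gut-homing receptor gene, had none. Their 59 regions included 34 lower (57.6%) and 3 higher (5.08%), with a median of -0.96 in the authors' deposited table, where all regions had 46.3% lower and 12.7% higher. By gene, 11 of 16 had a lower region and 2 a higher one in the authors' deposited table, against 71.3% and 15.8% of all genes with a region. Summed over the receptor genes and their flanks, peaks covered 134 to 136 kb in WT and 80.9 to 96.8 kb in KO. The same sum over the inflammatory ligands was 21.8 to 26.9 kb in WT and 26.1 to 28.6 kb in KO. A difference between these classes was not tested.

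Cxcr5 (chromosome 9, 44511787 to 44526444), the receptor gene that guides lymphocytes into B cell follicles, was lower throughout. All 6 of its regions fell, with log2 values of -0.96 to -2.23, in the authors' deposited table, with the lowest FDR of the family, 1.33e-13, at a region inside the span (44518351 to 44519250). Covered length was 11329, 11892 and 11176 bp in WT and 2242, 3201 and 1203 bp in KO. The groups were far apart, with means of 11466 ± 377 and 2215 ± 999 bp (SD, n = 3 each), a ratio of 0.193.

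Peak height did not separate the genotypes everywhere at Cxcr5. Just left of the span, at 44509651 to 44511000, the highest peak stood at 60.2, 69.8 and 69.4 in WT and 70.8, 74.2 and 68.8 in KO, with overlap, while the region's strongest window had -0.96 (FDR 0.00698) in the authors' deposited table. That region also overlaps Bcl9l. Inside the span, at 44514751 to 44516550, heights were 42.4, 43.4 and 40.4 in WT and 18.4, 21.8 and 23.4 in KO, and the highest KO library was well below the lowest WT library (42.0 ± 1.503 and 21.2 ± 2.59, SD, n = 3 each; exact permutation p = 0.1). The 12 windows there were all down in the authors' deposited table.

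Xcr1 (chromosome 9, 123852315 to 123862029), known as the receptor gene of cross-presenting dendritic cells, had all 4 regions lower, from -1.26 to -1.58, in the authors' deposited table. Covered length was 11851, 10091 and 11736 bp in WT and 3932, 5511 and 6694 bp in KO, without overlap. The region on the upstream side of the start site (123865801 to 123869400) had -1.58 (FDR 8.19e-12) with 24 of 24 windows down in the authors' deposited table. Peaks there reached 68.2, 68.6 and 72.4 in WT and 30.3, 28.4 and 36.5 in KO, again without overlap (69.7 ± 2.31 and 31.7 ± 4.22, SD, n = 3 each; exact permutation p = 0.1). Xcr1 adjoins Fyco1, and 2 of its 4 regions overlap that gene. The one with the Fyco1 start site (123848251 to 123852000) had a highest peak of 144, 152 and 146 in WT and 143, 150 and 163 in KO, with overlap, though its strongest window had -1.26 (FDR 4.17e-06) in the authors' deposited table.

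Cxcr6 (chromosome 9, 123806477 to 123811754), the receptor gene for CXCL16, lies within the span of Fyco1. Its 5 regions were all lower, from -0.68 to -1.56, in the authors' deposited table, and each overlaps Fyco1, so signal of the pair cannot be told apart. Peaks covered 4877, 5041 and 5197 bp in WT and 2088, 1245 and 3550 bp in KO, without overlap. At the region near the start site (123806551 to 123807450) 6 of 6 windows were down in the authors' deposited table (-1.56, FDR 9.01e-08).

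Ccr8 (chromosome 9, 120092133 to 120094906), a receptor gene of regulatory and Th2 cells, had -1.60 (FDR 2.04e-11) at its start-site region (120090901 to 120094350) in the authors' deposited table. Of the 23 windows 22 were down. Heights were 44.1, 56.9 and 58.9 in WT and 35.7, 37.1 and 32.8 in KO, without overlap (53.3 ± 8.01 and 35.2 ± 2.19, SD, n = 3 each; exact permutation p = 0.1). Covered length was 5647, 5110 and 6905 bp in WT and 2478, 3868 and 2975 bp in KO, which also did not overlap. Its promoter, printed above, held none of the searched motifs.

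Ccr4 (chromosome 9, 114490316 to 114505476), a receptor gene of Th2, regulatory and skin-homing T cells that many Th17 cells share, had 4 of 4 regions lower in the authors' deposited table. Over the start site (114494551 to 114498300) the value was -0.96 (FDR 1.73e-05), with 25 of 25 windows down, in the authors' deposited table. Height there was 52.4, 61.4 and 59.6 in WT and 39.5, 41.5 and 41.7 in KO, without overlap (57.8 ± 4.78 and 40.9 ± 1.23, SD, n = 3 each; exact permutation p = 0.1). A 450 bp region within the span (114500401 to 114500850) had the lowest value, -1.78 (FDR 5.87e-06), in the authors' deposited table, and a peak only in WT replicate 1. Covered length over the gene was 10129, 8728 and 8389 bp in WT and 5708, 6461 and 7129 bp in KO, and the groups did not overlap.

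Ccr7 (chromosome 11, 99144199 to 99155077), which brings naive and central memory T cells into lymph nodes, had 2 of 3 regions lower, -1.34 (FDR 4.70e-08) and -1.09 (FDR 0.000302), in the authors' deposited table. These cover nearly the whole gene. Peaks took 14951, 15221 and 15381 bp in WT and 12420, 10550 and 11477 bp in KO, without overlap. The tallest peak at the region of lowest FDR (99150751 to 99156900) overlapped between genotypes, at 79.7, 93.3 and 85.9 in WT and 84.9, 79.9 and 88.5 in KO.

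Cx3cr1 (chromosome 9, 120048683 to 120068296), the fractalkine receptor gene, had 2 of 5 regions lower, -1.24 (FDR 1.65e-05) and -1.21 (FDR 0.000251), in the authors' deposited table. At the first (120053401 to 120056250) heights were 22.8, 28.7 and 34.3 in WT and 17.3, 21.4 and 18.8 in KO, without overlap (28.6 ± 5.77 and 19.1 ± 2.08, SD, n = 3 each; exact permutation p = 0.1). Covered length was 6155, 8760 and 9076 bp in WT and 5769, 5450 and 5456 bp in KO, without overlap but with WT replicate 1 close to KO replicate 1.

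Cxcr3 (chromosome X, 101731535 to 101734147), the receptor gene of Th1 cells, had 3 of 3 regions lower, from -1.29 to -1.36, in the authors' deposited table. Covered length was 3666, 7355 and 6634 bp in WT and 2126, 2506 and 2344 bp in KO. Every KO library was below every WT library, with WT replicate 1 between the others. KO replicate 3, the library with more peaks on chromosome Y, lay between the other KO libraries at this X-linked gene. Peak height at the region of lowest FDR (101730301 to 101732100) was 14.5, 21.0 and 18.5 in WT and 15.1, 14.4 and 13.5 in KO, with overlap.

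Ccr10 rose instead. This receptor gene for CCL27 and CCL28 (chromosome 11, 101172998 to 101175443) had 2 regions in its left flank, with 1.70 (FDR 2.80e-07) and 0.97 (FDR 9.75e-05) in the authors' deposited table. The first (101172001 to 101172450) had a peak in KO replicates 1 and 2 and in no WT library. Heights at the second (101170651 to 101171550) were 19.6, 17.5 and 19.5 in WT and 43.8, 40.2 and 34.9 in KO, without overlap (18.9 ± 1.17 and 39.6 ± 4.47, SD, n = 3 each; exact permutation p = 0.1). The log2 ratio was 1.07, or 0.78 on the authors' scale. That second region also covers the start site of Plekhh3. Covered length was 771, 605 and 768 bp in WT and 1081, 1484 and 687 bp in KO, with overlap.

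The atypical receptor gene Ccrl2 (chromosome 9, 111054834 to 111057518), whose product binds chemerin and presents it to other cells, also rose. Its only region (111056101 to 111059700) covers the start site and had 1.39 (FDR 2.02e-07), with 17 of 24 windows up, in the authors' deposited table. Heights were 28.3, 20.7 and 23.9 in WT and 36.2, 41.9 and 35.4 in KO, without overlap (24.3 ± 3.84 and 37.9 ± 3.55, SD, n = 3 each; exact permutation p = 0.1). The log2 ratio was 0.64, or 0.35 on the authors' scale. Covered length was 2597, 1743 and 2102 bp in WT and 2559, 3712 and 3300 bp in KO, with KO replicate 1 just under WT replicate 1. The atypical receptor genes Ackr1 to Ackr4, which scavenge chemokines mainly in endothelial and other stromal cells, had no peak.

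**Figure D4:**
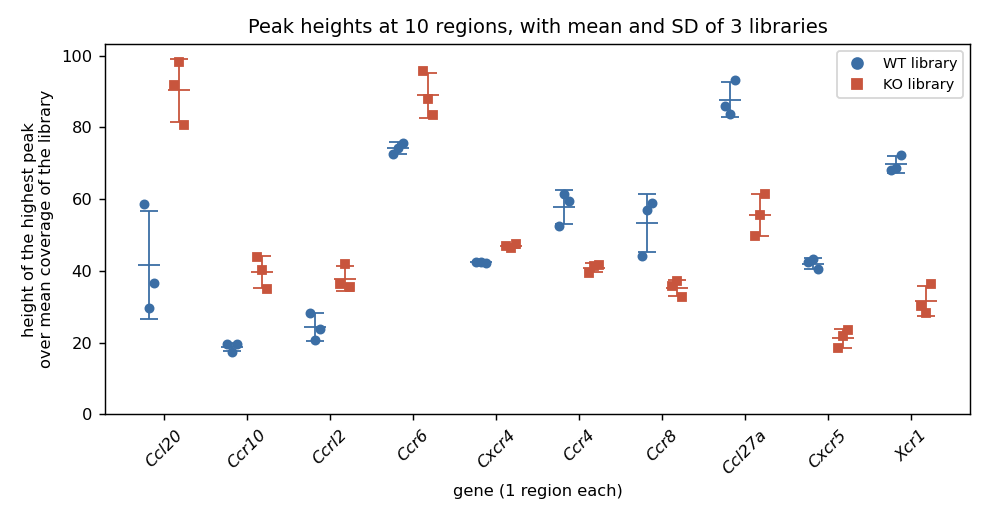
Height of the highest peak over the mean coverage of its library (y axis) at 1 region of each of 10 genes (x axis), with 1 point per library and the mean and SD of 3 libraries. Only regions without overlap between genotypes are drawn. Ccr4, Cxcr5 and Xcr1 each also have a region, not drawn, where heights overlap. The KO libraries lie above WT at Ccl20, Ccr10, Ccrl2, Ccr6 and Cxcr4 and below at Ccr4, Ccr8, Ccl27a, Cxcr5 and Xcr1, and on the authors' scale, 0.29 lower in log2, the ratios of Ccr6 and Cxcr4 fall below 1.

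Peak height was compared at the 29 regions with a summit in all 6 libraries. Every KO library was below every WT library in 6, against a background of 19.8%, and above in 9, against a background of 25.3%. On the authors' scale the mean ratio stayed above 1 in 6 of those 9 and fell below 1 in 3, at Ccr6, Cxcr4 and the left region of Cxcl16. None had a Benjamini-Hochberg adjusted p under 0.193, and the design cannot go below 0.1 for a single region.

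The start site could be placed for 21 genes with a region, and in 13 it lay inside one. Of these start-site regions 8 were lower (Ccl27a, Ccl25, Ccl17, Ccr4, Ccr8, Ccr1, Ccr6 and Cxcr3), 2 higher (Ccl20 and Ccrl2) and 3 not called (Cxcr4, Ccr1l1 and Ccl3) in the authors' deposited table. Over all regions of that table, at start sites or elsewhere, 46.3% were lower and 12.7% higher. Cxcr4, the receptor gene for CXCL12, had -0.61 (FDR 0.296) in the authors' deposited table.

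Receptor genes lie together on chromosome 9, where Cxcr6, Xcr1, Ccr1, Ccr1l1, Ccr3 and Ccr2 follow one another. In the 171.1 kb from Cxcr6 to Ccr1, flanks included, 20 of 26 regions were lower and 1 higher, with a median of -1.20, in the authors' deposited table. The authors' deposited table lists 46.3% of all regions as lower and 12.7% as higher. The first 50.4 kb of this stretch lie within the span of Fyco1, so signal there cannot be assigned to the receptor genes alone. In the adjoining 141.6 kb from Ccr1l1 to Ccr2, 1 of 17 was lower and 0 higher, with a median of -0.45, in the authors' deposited table. This division was drawn after the values were seen, so it is a description and was not tested.

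Covered length was also read in each library for both stretches. From Cxcr6 to Ccr1 peaks covered 75.9, 75.1 and 76.3 kb in WT and 42.3, 51.1 and 60.1 kb in KO, without overlap. From Ccr1l1 to Ccr2 they covered 41.5, 39.6 and 39.7 kb in WT and 25.3, 38.7 and 36.1 kb in KO, also without overlap but with KO replicate 2 close to WT. KO replicate 1 was the lowest library in both.

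**Figure D5:**
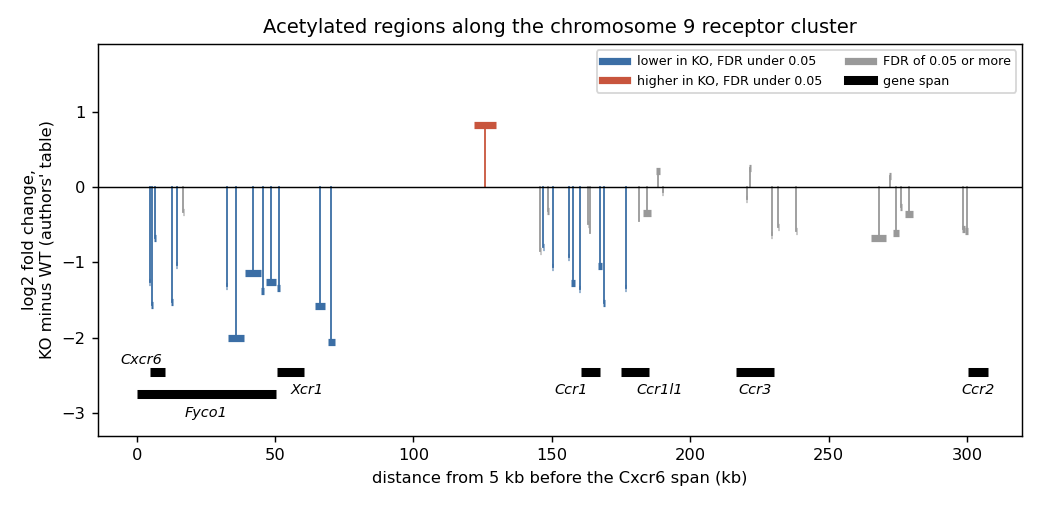
Log2 fold change (y axis, KO minus WT, authors' deposited table) of regions along the chromosome 9 receptor cluster, by distance from 5 kb before the Cxcr6 span (x axis, kb). Horizontal bars show the width of each region and black bars the gene spans, with Fyco1 on its own line. Regions from Cxcr6 to Ccr1 are mostly lower, and most regions from Ccr1l1 onward were not called.

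Within this cluster Ccr1 (chromosome 9, 123962126 to 123968692), a receptor gene of myeloid cells and some T cells, had 5 of 7 regions lower in the authors' deposited table. Its lowest value was -1.54 (FDR 8.04e-05), at a region (123970051 to 123970650) with peaks in 3 WT and 0 KO libraries, in the authors' deposited table. Covered length was 9819, 9141 and 9564 bp in WT and 1907, 5441 and 5440 bp in KO, without overlap and with KO replicate 1 lowest. The neighbouring Ccr1l1, a Ccr1-like gene, had 1 of 5 regions lower, with -1.34 (FDR 0.000512) at a 300 bp region, in the authors' deposited table. Its covered length was 10515, 10782 and 9037 bp in WT and 4601, 7532 and 7875 bp in KO, and part of its flank is shared with Ccr1. Ccr3 and Ccr2, receptor genes of eosinophils and monocytes that some T cells also express, had no call, and their lowest FDRs were 0.183 and 0.0605 in the authors' deposited table. Away from the cluster, Cxcr1 and Cxcr2, neutrophil receptor genes, had peaks but no tested region.

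Genes through which the receptors signal and cells migrate were examined beside the family. Of 51 listed, 49 matched the annotation and 47 had a region. In the authors' deposited table the region of lowest FDR was lower for 36 and higher for 7, with a median of -1.15. For all 13154 genes with a region, the same counts were 8884 (67.5%) and 1548 (11.8%), with a median of -0.88, in the authors' deposited table. The lower genes with the lowest FDR were Pik3r5, a regulatory subunit of PI3 kinase gamma, at -2.67, the G protein regulators Rgs3 and Rgs10 at -2.18 and -1.56, and the Rac exchange factor gene Prex1 at -2.16, in the authors' deposited table. Among the higher ones were Dock2, which activates Rac downstream of chemokine receptors, at 1.29, Rhoh, a small GTPase gene of blood cells, at 1.29, the G protein subunit gene Gnb1 at 1.19 and the integrin regulator Rap1a at 1.00, in the authors' deposited table. The authors' deposited table lists 5 of 9 Dock2 regions and 1 of 9 Rhoh regions as higher, and 0 of either gene as lower. Gnb1 and Rap1a each have 3 of 4 regions lower and 1 higher. Of the lower genes, Pik3r5 has 6 of 17 regions lower and 1 higher. Rgs3 has 8 of 13 regions lower, Rgs10 6 of 6 and Prex1 8 of 10, each with 0 higher.

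Other chemoattractant receptor genes of leukocytes, 18 in all, had 13 with a region, of which the authors' deposited table lists 11 with a lower region and 0 with a higher one, against 71.3% and 15.8% of all genes with a region. Their median was -1.13. Gpr183, the oxysterol receptor gene, had -1.41 with 3 of 3 regions lower, Ptger4, a prostaglandin E2 receptor gene, had -1.68 with 2 of 2, Gpr132 had -1.82 with 4 of 6 and Gpr18 had -1.27 with 3 of 3, in the authors' deposited table.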

How the data were processed

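H3K9/14ac was measured in 3 WT and 3 KO Th17 ChIP libraries. Per the submitters' processing notes, the tools included MACS2 2.2.6 and Bowtie2 2.3.5.1, and the build was GRCm38 (mm10). Peaks were called per library, and the paired-end lists were used. Per the file headers and layout, the deposited peak columns are a score, a linear fold (ratio) over background, and -log10 of p-value and q-value, the last of at least 3.00. The authors' deposited table gives, per region, a log2 fold change of the strongest 150 bp window, a p-value, an FDR and window counts, with no value per library, so it could not be refitted. The sources used here do not give its program, its scaling or its use of input.

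Region spans came from the deposited list of regions with an FDR under 0.05 (48 of the family's regions) or were rebuilt by joining windows that met single-read peaks (36). Rebuilding returned 98.8% of listed spans exactly. Peak heights were solved from the deposited fold and p as MACS2 defines them, which returned the deposited -log10 p within 0.01 for 99.6% to 100% of peaks, and divided by mean coverage, read as the smallest background that 50 or more peaks share. On simulated data 99.7% to 100% of heights were returned. The offset of 0.29 between the authors' scale and the coverage scale was read from 372 regions (r = 0.995 across regions, which are not independent replicates). Precision is limited by 3 libraries per genotype and by coverage, and counting error is not included.

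Exact permutation tests, two-sided, compared library values (Python 3.11.15, scipy 1.17.1), and heights were adjusted by Benjamini-Hochberg over 29 regions. An overlap of at least 1 bp counted. Gene spans, start sites and promoters are from RefSeq (GRCm38.p6), and promoters matched 48 of 63 genes. The members and lists were chosen with earlier results of these data known. Named with values were Ccl20, Ccr6 and members with a called region, with library values for those 2 and the 12 members of lowest FDR. Library values of Ccl5, Ccl17, Cxcl2, Cxcl16, Ccr1 and Ccr1l1 were added after seeing the data. Some genes that these rules take are not reported here. Of the other lists, up to 4 genes of lowest FDR in each direction were named. Alternatives covered the peak list, its threshold, equal numbers of the strongest peaks, the flank, the FDR, a fold minimum, the scaling, leaving out each library and a replicate block.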

Additional observations from a re-analysis of the deposited data

How the results depend on the processing

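The fall in covered length (-40.3 kb) kept its direction and its exact permutation p of 0.1 under single-read peaks, a -log10 q minimum of 5, the 39264 strongest peaks of every library, flanks of 0, 2 and 10 kb and leaving out each library (-33.95 to -45.2 kb). Its size was -18.6 kb with single-read peaks, -20.9 kb with no flank and -58.4 kb with a flank of 10 kb. The number of genes with a peak is not resolved: its KO minus WT difference of -1.33 became 1.00 with single-read peaks and 0.667 with flanks of 0 kb and of 2 kb, and was -0.667 to -1.67 without 1 library; the cause was not tested. Genes with every KO library below WT in covered length numbered 14 to 17 without 1 library and 11 to 15 under the other settings, which were added after seeing the data. A minimum log2 fold change of 1 in either direction left 3 higher regions and 3 genes with a higher region in the authors' deposited table. A flank of 0 kb, which takes in less chromatin, left 22 lower and 4 higher regions. Other counts from that table stayed within 1.5 times. Deviations of same-numbered WT and KO libraries had correlations of 0.003, -0.010 and 0.039 over 17758 regions. Those of WT and KO libraries with unlike numbers were -0.052 to 0.049. Whether same-numbered libraries were handled together cannot be read from these values. With the replicate block the difference in genes with a peak had p = 1 and that in covered length p = 0.25 (exact sign-flip permutation, the smallest 3 pairs allow).

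Of 81 alternatives for single genes, 1 reversed: with a flank of 10 kb the region of lowest FDR near Cxcl16 had -1.002 in the authors' deposited table. Another 16, the means over all regions of a gene, kept direction but moved in size, as at Ccr1l1 from -1.34 to -0.40. The other 64 kept direction. Most flank settings returned the same region and value, and the scaling only added 0.29, so this was largely fixed beforehand. Of 132 for peak heights 6 reversed, each where the groups overlapped. Leaving out a library cannot reverse groups that do not overlap. The Cx3cr1 height at a region with no call (KO minus WT 1.47) was -1.25 (without KO replicate 2) to 3.82 with 1 library left out, and -4.56 with single-read peaks. At Xcr1, beside the Fyco1 start site, the difference was -0.547 (without KO replicate 3) to 9.34. At Ccr7 it was -12.1 to 0.898 (without KO replicate 2) at one region, and -5.15 to 1.65 (without WT replicate 2; 0.404 without KO replicate 2) at the other.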
